A study of Triticum aestivum with 24 samples.

Results

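Transcripts of 8 genes of the circadian clock and the day-length response were followed in leaves of Alana, a winter cultivar of bread wheat (Triticum aestivum). The genes were taken by identifier from a table of 105200 genes: PPD-A1 (TraesCS2A02G081900) and PPD-D1 (TraesCS2D02G079600), ELF3-A1 (TraesCS1A02G443200), ELF3-B1 (TraesCS1B02G477400) and ELF3-D1 (TraesCS1D02G451200), and GI-A1 (TraesCS3A02G116300), GI-B1 (TraesCS3B02G135400) and GI-D1 (TraesCS3D02G118200). All 8 were found. The names came with the list of identifiers and could not be checked against the table, which holds identifiers only, and no copy on chromosome 2B was listed for PPD1. The letter in each name gives the subgenome (A, B or D), and copies of a gene on different subgenomes are called homoeologs.

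The study crossed 3 treatments, each present or absent, in 8 groups of 3 biological replicates, so that 24 libraries of poly-A RNA were sequenced. Leaves were taken from drought plants (soil water held near 25%, with a tolerance of 5%), heated plants (temperature of up to 31 °C), CO2 plants (700 ppm), plants under temperature+drought, CO2+drought, CO2+temperature and CO2+temperature+drought, and control plants without treatment. All were of 1 genotype, and the material was leaf 3 and leaf 4 of the main tiller at growth stage 61, which is early flowering. The sources used here do not give the time of day at which leaves were cut.

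Plants keep daily time with a circadian clock, a set of genes that repress one another in turn, and read the season by setting that clock against the length of the day. GI (GIGANTEA) is a large clock protein whose transcript peaks late in the day in Arabidopsis, where it aids the flowering regulator CONSTANS by helping to destroy its repressors. ELF3 (EARLY FLOWERING 3) is a part of the evening complex, which represses other clock genes at night and loses activity in warmth in Arabidopsis. In wheat, variation at ELF3 is a candidate basis of earliness per se, meaning flowering time that does not depend on day length or cold. PPD1 (PHOTOPERIOD 1), a pseudo-response regulator, is the main day-length gene of wheat and promotes the florigen gene FT1 in long days. Because these transcripts cycle over the day, their level at a single harvest depends on its hour, and the part of harvest time in the differences given here was not tested.

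Levels are in FPKM, in which the authors had scaled fragments by transcript length and library size, so that they can be compared between genes. The absolute depth of the libraries was unknown. The 6 temperature+drought and CO2+drought libraries carried 9 decimals, fewer than the other 18. Median-ratio factors, which give the typical level of a library's genes relative to the others, ran between 0.864 and 0.885 for these 6 libraries and between 1.04 and 1.05 for the others, a fold of 1.19 between the sets (0.252 on the log2 scale). Results touched by this are given as deposited and rescaled, that is, with the values of a library divided by that library's factor. The offset cancels in the average effects of temperature and of CO2, and in the drought by temperature and drought by CO2 interactions, because 1 of the 2 low groups stands on each side of them. Leaf markers could not be checked, since the table names no genes. In whole leaves, fewer cells of a type and less RNA per cell cannot be told apart.

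The 8 genes were measured well above the minimum of 1 FPKM, and all 8 were among the 45359 genes tested. GI was the most abundant family per transcript length. GI-A1 averaged 36.6 FPKM over the 24 libraries, GI-B1 31.6 and GI-D1 20.4, and these means stood at percentiles 93.3, 92.0 and 86.8 of all tested genes. The ELF3 copies averaged 7.92 (A), 8.58 (B) and 7.45 FPKM (D), and the PPD1 copies 5.66 (A) and 6.39 FPKM (D), between percentiles 56.6 and 68.7. ELF3 was the steadiest family. Its highest group mean was 1.49, 1.23 and 1.43 times the lowest for the A, B and D copies, against 2.13, 2.33 and 2.52 times for GI-A1, GI-B1 and GI-D1, and 1.77 and 2.33 times for PPD-A1 and PPD-D1, all as deposited.

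**Figure D1:**
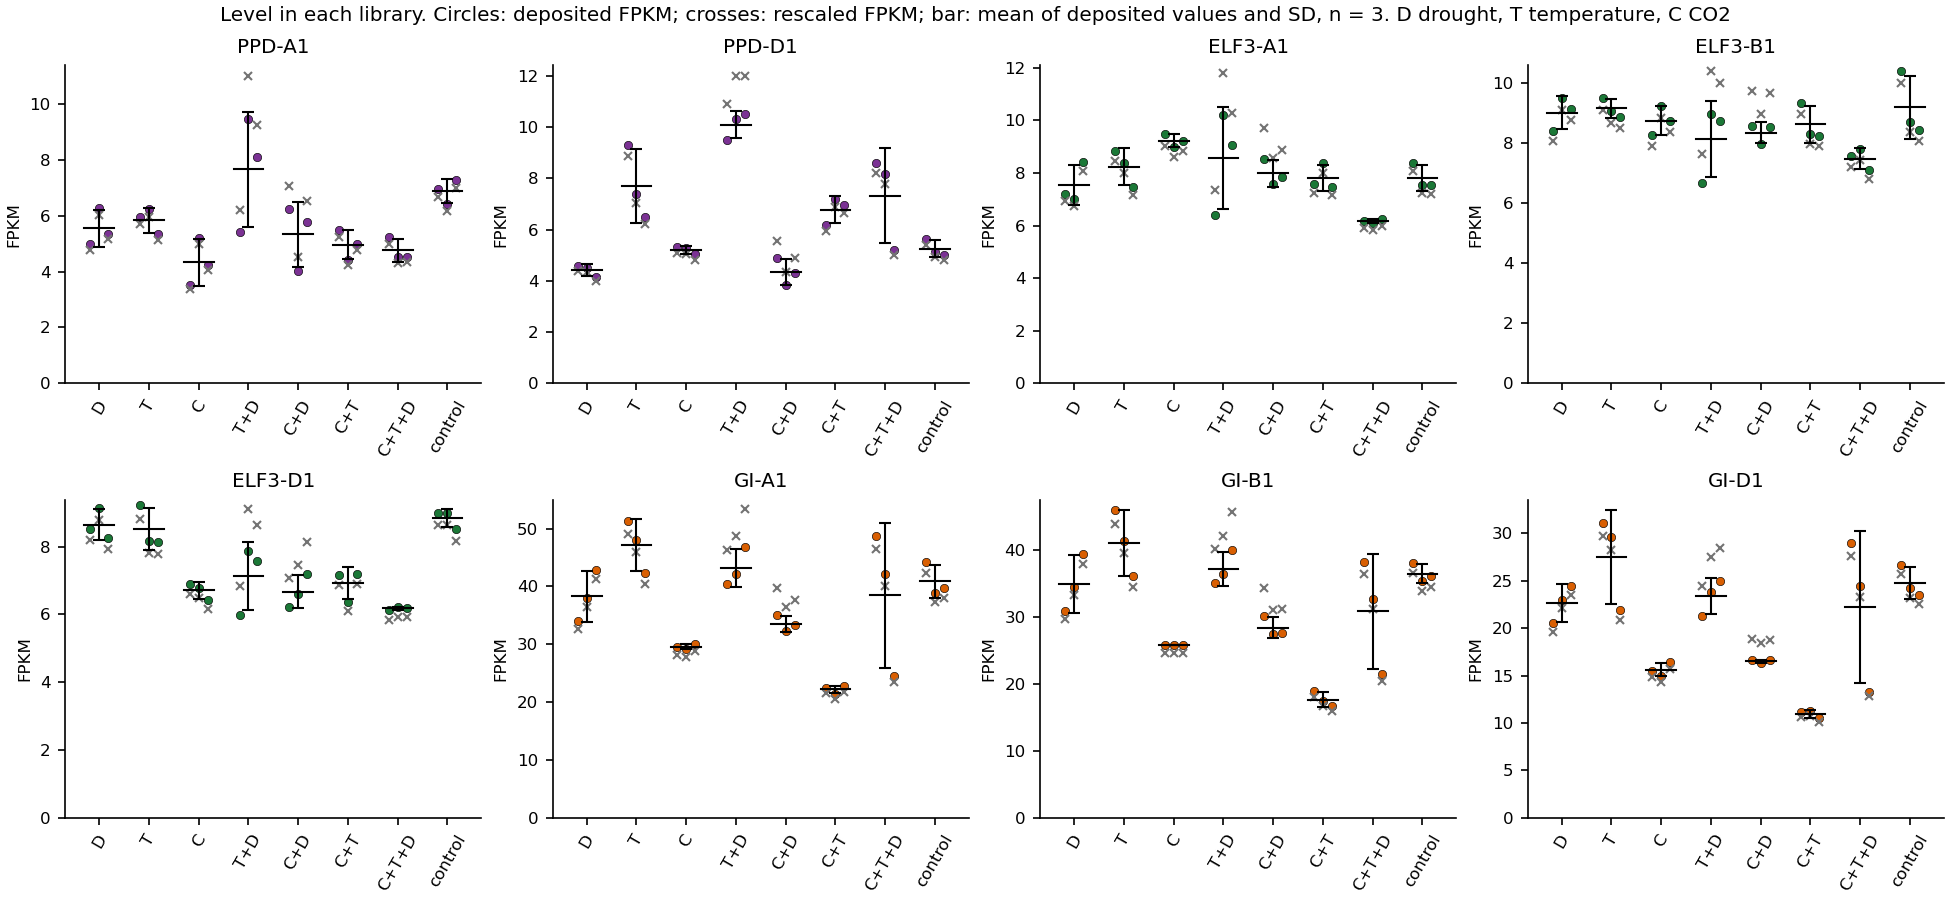
Level of each of the 8 genes in every library, by treatment group, with control at the right (D for drought, T for temperature, C for CO2). The vertical axes are FPKM and start at 0, circles are deposited values, crosses rescaled values, and the bars show the mean and SD of the deposited values (n = 3). GI copies are lowest in CO2+temperature leaves, and PPD-D1 is highest in temperature+drought leaves.

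Copies differed in which treatment their levels followed, also within the PPD1 and ELF3 families. On the log2(FPKM + 1) scale, CO2 accounted for 45.1% (GI-A1), 54.3% (GI-B1) and 50.5% (GI-D1) of the sum of squares over the 24 libraries as deposited, and for 60% in ELF3-D1 and 41.5% in PPD-A1. The median of all tested genes was 6.17%. Temperature accounted for 68.1% in PPD-D1, against a median of 6.37% for all tested genes. ELF3-B1 followed no treatment closely, and differences between replicates made up 52.3% of its variation. In ELF3-A1 the temperature by CO2 interaction was the largest treatment part, at 28.6% as deposited and 47.2% rescaled.

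**Figure D2:**
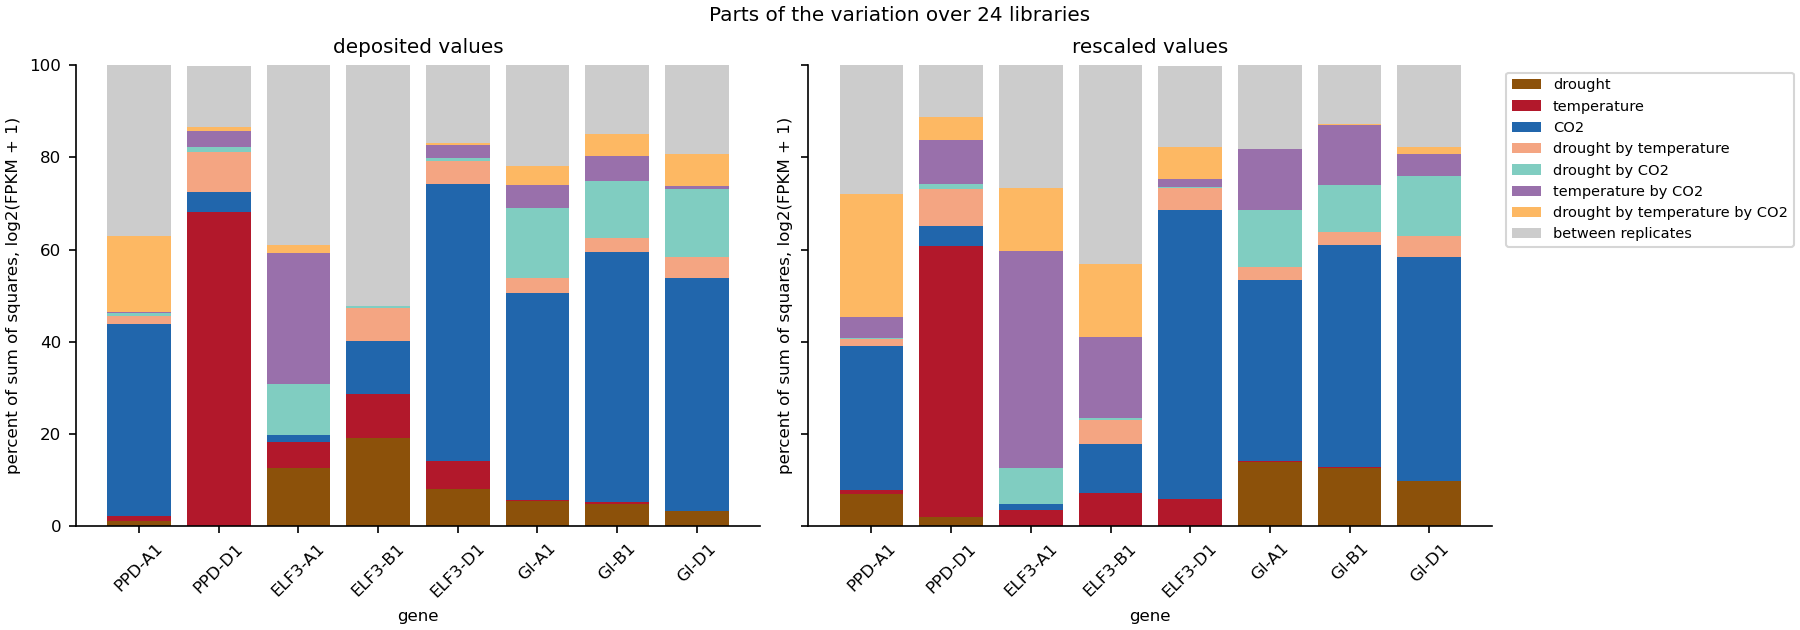
Parts of the variation of each gene over the 24 libraries, as percent of the sum of squares on the log2(FPKM + 1) scale, for deposited (left) and rescaled (right) values. CO2 is the largest part in the 3 GI copies, ELF3-D1 and PPD-A1, temperature in PPD-D1, and replicates in ELF3-B1. In ELF3-A1 the largest part is replicates as deposited and the temperature by CO2 interaction rescaled.

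Elevated CO2 lowered the GI transcripts, ELF3-D1 and PPD-A1 on average. Averaged over the 4 backgrounds (alone, with temperature, with drought, with both), CO2 lowered 5 of the 8 genes and raised 0 in a limma fit across all tested genes, of which 39.4% were called and 18.8% called lower. The rescaled fit called 6 of 8, all lower, with PPD-D1 added (log2 change -0.17, limma adjusted p = 0.049), beside 39.2% of all tested genes, 19.4% lower. The median change of the 8 genes was -0.31, and that of all tested genes 0.01. Here and throughout, a call means a limma p-value, adjusted by the Benjamini-Hochberg method over all tested genes, under 0.05, and log2 changes are on the log2(FPKM + 1) scale.

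GI-A1 lay between 21.4 and 48.7 FPKM in the 12 libraries with CO2 (median 29.8), against 34.1 to 51.3 FPKM in the 12 without (median 42.2). The ranges overlapped, through CO2+temperature+drought replicates 1 and 2 and CO2+drought replicate 1. The average log2 change was -0.48 (SE 0.08, limma adjusted p = 7.2e-05), and GI-B1 and GI-D1 changed by -0.56 (SE 0.07, limma adjusted p = 2.9e-06) and -0.61 (SE 0.09, limma adjusted p = 1.6e-05). Rescaled, the 3 changes were -0.48, -0.57 and -0.62.

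With CO2 alone, 5 of the 8 genes fell against control (35.3% of all tested genes were called, 15.4% lower), and the same 5 were called after rescaling (34.6% of all tested genes, 15.3% lower). GI-A1 had 29.6, 29.1 and 30.1 FPKM in CO2 leaves, against 44.2, 38.8 and 39.7 FPKM in control leaves. GI-B1 had 25.8 FPKM in each of the 3 CO2 leaves, against 38.1, 35.4 and 36.1 FPKM in control leaves. GI-D1 had 15.5, 15 and 16.4 FPKM in CO2 leaves, against 26.7, 24.2 and 23.5 FPKM in control leaves. The CO2 replicates lay close together and below every control library for all 3 copies. Here and for the other groups, the share of all tested genes without overlap with control is not given. Lack of overlap thus describes the libraries and does not set a gene apart from other genes. The log2 changes were -0.45, -0.49 and -0.63 for the A, B and D copies (SE 0.16, 0.14 and 0.18, limma adjusted p = 0.031, 0.011 and 0.0086). The GI-A1 call was lost without control replicate 1 or 3 or any of the 3 CO2 replicates, with an adjusted p of up to 0.105.

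CO2 and temperature together gave the lowest GI levels of the study. GI-A1 had 22.4, 21.4 and 22.7 FPKM in CO2+temperature leaves, against 44.2, 38.8 and 39.7 FPKM in control leaves (log2 change -0.85, SE 0.16, limma adjusted p = 0.00036). GI-B1 had 18.9, 17.4 and 16.7 FPKM in CO2+temperature leaves, against 38.1, 35.4 and 36.1 FPKM in control leaves (log2 change -1.01, SE 0.14, limma adjusted p = 1.8e-05). GI-D1 had 11.1, 11.2 and 10.5 FPKM in CO2+temperature leaves, against 26.7, 24.2 and 23.5 FPKM in control leaves (log2 change -1.11, SE 0.18, limma adjusted p = 7.6e-05). No CO2+temperature library overlapped any CO2 library either, the group next above it in the order of all 3 copies. Temperature leaves had the highest GI means as deposited, with 51.3, 48 and 42.3 FPKM of GI-A1, while rescaled the highest means of all 3 copies were in temperature+drought leaves (49.5 FPKM of GI-A1, next to 45.1 in temperature leaves). CO2+temperature had 0.47, 0.43 and 0.40 times the temperature mean for GI-A1, GI-B1 and GI-D1. Temperature alone changed none of the GI copies past the threshold (log2 changes 0.13 to 0.20).

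The fall of GI with CO2 was smaller under drought. The drought by CO2 interaction, which is the CO2 effect with drought minus that without, averaged over temperature, was positive and called in 3 of the 8 genes, all GI (13.9% of all tested genes were called, 4.81% positive, and rescaled 14.3% and 4.62%). It was 0.55 for GI-A1 (SE 0.16), 0.54 for GI-B1 (SE 0.14) and 0.66 for GI-D1 (SE 0.18), with limma adjusted p = 0.023, 0.015 and 0.017. After rescaling the values were 0.54, 0.52 and 0.64, and the 3 calls held. As deposited, CO2+drought leaves had 35, 32.2 and 33.3 FPKM of GI-A1, against 34.1, 38 and 42.9 FPKM in drought leaves. CO2+temperature+drought leaves had 48.7, 42.1 and 24.5 FPKM, against 40.5, 42.1 and 46.8 FPKM in temperature+drought leaves. Both GI-A1 pairs overlapped, also when rescaled, unlike the 2 pairs without drought. Overlap of the pairs with drought depended on the scale for GI-B1. Its CO2+drought leaves had 27.5 to 30.2 FPKM as deposited, against 30.9 to 39.5 FPKM in drought leaves, and 31.1 to 34.4 FPKM rescaled, against 29.7 to 37.9 FPKM. Its CO2+temperature+drought leaves overlapped temperature+drought leaves as deposited and not rescaled. For GI-D1, CO2+drought leaves lay below drought leaves on both scales. The CO2+drought mean was 0.87, 0.81 and 0.73 times the drought mean for GI-A1, GI-B1 and GI-D1 as deposited, and 1.03, 0.96 and 0.86 times rescaled. The CO2+temperature+drought mean was 0.89, 0.83 and 0.95 times the temperature+drought mean as deposited, and 0.74, 0.69 and 0.79 times rescaled. Without drought, the rescaled ratios were 0.72, 0.70 and 0.63 for CO2 alone, and 0.47, 0.43 and 0.40 with temperature. Rescaled, GI-A1 and GI-B1 thus fell about as much under temperature+drought as with CO2 alone.

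The CO2+temperature+drought group was uneven for GI, with coefficients of variation of 32.6%, 27.8% and 36.1% for the A, B and D copies. Its replicate 3 had 24.5, 21.5 and 13.3 FPKM of GI-A1, GI-B1 and GI-D1, near the CO2+temperature level, while replicates 1 and 2 lay at 48.7 and 42.1, 38.3 and 32.8, and 29 and 24.4 FPKM. Without that replicate, the drought by CO2 interactions were 0.70, 0.65 and 0.81 (limma adjusted p of at most 0.00016) and the average CO2 effects -0.40, -0.50 and -0.53. Against control, no GI copy was called in this group (log2 changes -0.14, -0.28 and -0.22).

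**Figure D3:**
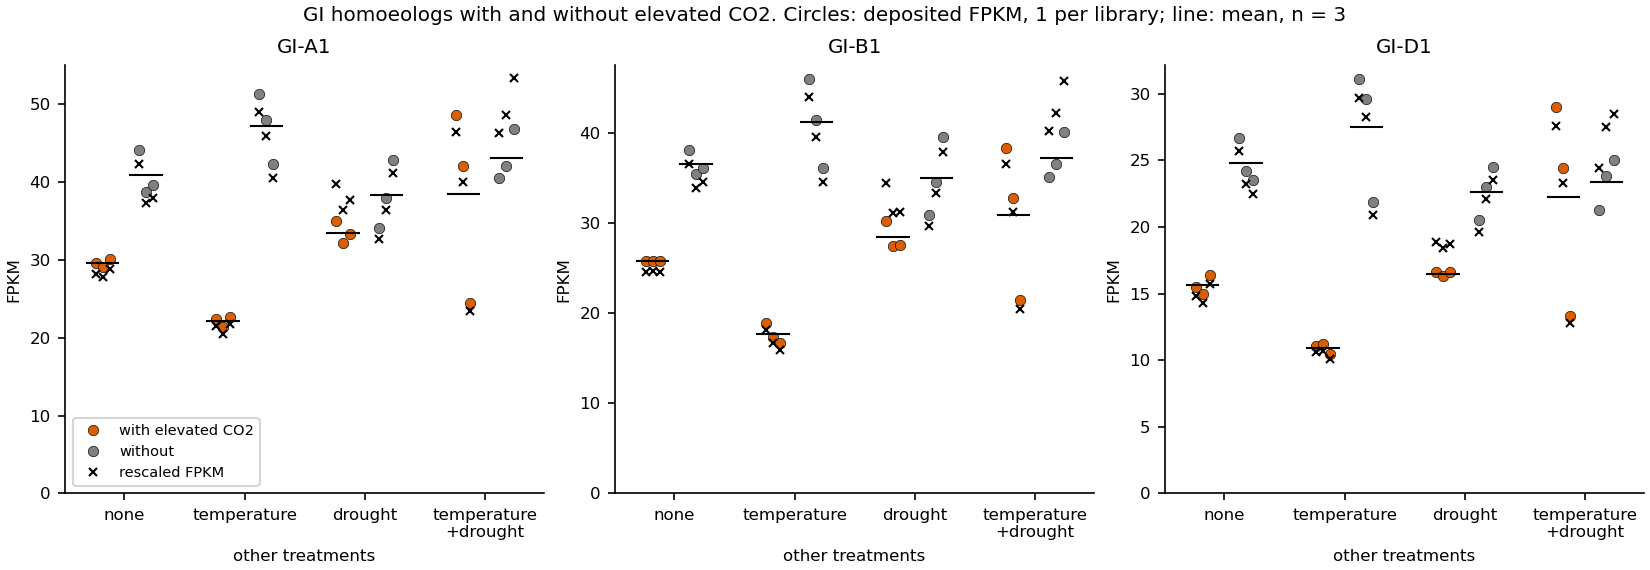
FPKM of the GI copies with elevated CO2 (orange, left of each pair) and without (grey), in the 4 backgrounds named on the horizontal axis, for each library. Circles are deposited and crosses rescaled values, and lines are means (n = 3). The pairs without drought do not overlap in deposited values, and replicate 3 of CO2+temperature+drought lies apart from the other 2.

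In CO2+drought leaves the scale of the columns decided the calls against control. As deposited, ELF3-D1, GI-B1 and GI-D1 were lower (log2 changes -0.36, -0.35 and -0.56), 3 of 8 beside 51.6% of all tested genes, 36.7% lower. Rescaled, 0 of 8 were called by limma (43.2% of all tested genes), with 1 gene at an unadjusted p under 0.05, and the 3 changes were -0.15, -0.12 and -0.33. The deposited GI-B1 call was also lost in 13 of the 24 fits with 1 library left out. The ratio of the GI sum to the ELF3 sum within a library, which no scaling of the library can alter, was 3.41 ± 0.112 in CO2+drought, 2.88 ± 0.0851 in CO2 and 2.17 ± 0.00333 in CO2+temperature leaves (SD, n = 3 each). It was 4.6 ± 1.43 in CO2+temperature+drought, 4.43 ± 0.647 in temperature+drought, 4.46 ± 0.322 in temperature and 3.8 ± 0.307 in drought leaves, and 3.96 ± 0.0851 in control leaves (SD, n = 3 each). The 3 CO2+drought libraries lay at 3.29 to 3.51, below the 3 control libraries (3.90 to 4.06) and above the 3 CO2 libraries (2.79 to 2.96). The ratio does not follow GI alone, since the ELF3 sum varied too. As deposited, CO2+temperature+drought leaves had an ELF3 sum of 19.8 FPKM (control 25.9) and a GI sum of 91.5 FPKM (control 102).

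Averaged over its 4 backgrounds, drought changed 0 of the 8 genes as deposited by limma, with 5 genes at an unadjusted p under 0.05 and 47.8% of all tested genes called. After rescaling, 3 of 8 rose, all GI (33.3% of all tested genes, 18% higher), by 0.29, 0.29 and 0.28 for the A, B and D copies (limma adjusted p = 0.0075, 0.0033 and 0.02). As deposited the same changes were 0.17, 0.17 and 0.16, beside a median of -0.10 over all tested genes. Without replicate 3 of CO2+temperature+drought they were 0.24, 0.23 and 0.23, and were called as deposited too. Drought alone against control changed 0 of 8 as deposited and rescaled by limma, with 0 at an unadjusted p under 0.05, when 1.91% and 1.80% of all tested genes were called.

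PPD-D1 rose with temperature, and its A homoeolog did not follow on average. PPD-D1 lay between 5.21 and 10.5 FPKM in the 12 heated libraries (median 7.77), against 3.83 to 5.63 FPKM in the 12 unheated ones (median 4.94). Only 1 heated library, replicate 3 of CO2+temperature+drought, fell inside the unheated range. The average log2 change was 0.61 (SE 0.07, limma adjusted p = 4.9e-07), and 0.62 after rescaling. It was the only 1 of the 8 genes called for temperature, beside 40.5% of all tested genes (40.4% rescaled). PPD-A1 changed by 0.06 on average with temperature (SE 0.08, limma adjusted p = 0.6), and the direction varied with the background. Its highest group mean was also in temperature+drought leaves (7.66 FPKM, 8.79 rescaled), 1.38 times the drought mean (1.65 rescaled). The ratio with temperature over without was 0.85 alone, 1.15 with CO2 and 0.89 with CO2+drought (0.85, 1.15 and 0.75 rescaled).

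PPD-D1 had 9.28, 7.37 and 6.47 FPKM in temperature leaves, against 5.63, 5.12 and 5.01 FPKM in control leaves. The groups did not overlap, and the log2 change was 0.47 (SE 0.13, limma adjusted p = 0.019), the only call among the 8 genes (16.6% of all tested genes, 16% rescaled). The call was lost without temperature replicate 1, control replicate 2 or control replicate 3 (adjusted p of up to 0.123). In temperature+drought leaves it had 9.49, 10.3 and 10.5 FPKM, above every library of every other group as deposited, against 4.58, 4.5 and 4.14 FPKM in drought leaves. Against control the change was 0.83 as deposited (SE 0.13, limma adjusted p = 3.7e-05) and 1.06 rescaled. The temperature effect was larger with drought than without, by an interaction of 0.43 (SE 0.13, limma adjusted p = 0.025), the only call of the 8 beside 20.2% of all tested genes, and 0.45 rescaled (20.3%). That call was lost without CO2+temperature+drought replicate 2, at an adjusted p of 0.05.

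With CO2 added, the rise of PPD-D1 was less even. It had 6.19, 7.19 and 6.94 FPKM in CO2+temperature leaves, against 5.63, 5.12 and 5.01 FPKM in control leaves, which did not overlap but were not called (log2 change 0.31, limma adjusted p = 0.084). In CO2+temperature+drought leaves it had 8.61, 8.16 and 5.21 FPKM, and the change of 0.39 was called (limma adjusted p = 0.032). Without replicate 3, the library that was also low in GI, the change was 0.59. The call was lost without replicate 1 or 2 of that group or without control replicate 2 or 3, with changes down to 0.27. The temperature by CO2 interaction of PPD-D1 was -0.28 as deposited (limma adjusted p = 0.081) and -0.50 rescaled (adjusted p = 0.0047). Without replicate 3 of CO2+temperature+drought, the deposited value was -0.18 (limma adjusted p = 0.141).

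PPD-A1 was lower with CO2 on average, but not clearly in each background. The CO2+drought mean was 0.96 times the drought mean as deposited and 1.14 times rescaled. As deposited, the ratio with CO2 over without was 0.63 alone, 0.85 with temperature and 0.62 with temperature+drought (0.62, 0.85 and 0.52 rescaled). PPD-A1 lay between 3.53 and 6.22 FPKM in the 12 libraries with CO2 (median 4.76), against 4.97 to 9.47 FPKM in the 12 without (median 6.25), with a mean difference of -0.35 on the log2 scale (SE 0.08, limma adjusted p = 0.0015). With CO2 alone it had 3.53, 5.21 and 4.23 FPKM, against 6.94, 6.43 and 7.29 FPKM in control leaves (log2 change -0.58, SE 0.16, limma adjusted p = 0.0076). All 3 CO2 libraries lay below all 3 control libraries. Under all 3 treatments it had 5.24, 4.52 and 4.53 FPKM, again below every control library (log2 change -0.45, limma adjusted p = 0.035). That call failed without any of the 3 control replicates or without replicate 2 or 3 of the group. Temperature+drought leaves had 5.41, 9.47 and 8.09 FPKM, the widest spread of this gene, and overlapped control. The interaction of all 3 treatments was -0.88 (SE 0.32, limma adjusted p = 0.034) and -1.31 rescaled, and 14 of the 24 fits with 1 library left out lost the call, with values from -1.08 to -0.73.

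Among the ELF3 copies, ELF3-D1 fell with CO2 and the others were not called. ELF3-D1 lay between 6.13 and 7.2 FPKM in the 12 libraries with CO2 (median 6.52), against 5.99 to 9.22 FPKM in the 12 without (median 8.39). The average log2 change was -0.28 (SE 0.04, limma adjusted p = 2.5e-05), and ELF3-A1 and ELF3-B1 changed by -0.04 and -0.08 (adjusted p = 0.586 and 0.176). With CO2 alone it had 6.9, 6.79 and 6.43 FPKM, against 9, 8.99 and 8.53 FPKM in control leaves (log2 change -0.35, SE 0.08, limma adjusted p = 0.003). With CO2+temperature it had 7.17, 6.37 and 7.2 FPKM (log2 change -0.32, limma adjusted p = 0.0078). Neither group overlapped control, and all these calls held in each fit with 1 library left out.

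ELF3-A1 went the other way in CO2 leaves, with 9.47, 9 and 9.23 FPKM, against 8.38, 7.53 and 7.54 FPKM in control leaves. The groups did not overlap, but the change of 0.22 was not called (limma adjusted p = 0.139). The temperature by CO2 interaction of ELF3-A1 was -0.37 (SE 0.11, limma adjusted p = 0.0083), and -0.60 rescaled. With GI-B1 (-0.35, limma adjusted p = 0.043), it made 2 calls of 8 as deposited, beside 53.0% of all tested genes, 15.3% negative, and the rescaled fit called 4 of 8, all negative, beside 44.3%, 23.9% negative. GI-A1 was at -0.32 as deposited and -0.56 rescaled. Without CO2+temperature+drought replicate 3, the deposited values were -0.17 for GI-A1 and -0.23 for GI-B1 (limma adjusted p = 0.122 and 0.052). The GI-B1 call was lost in 16 of the 24 fits with 1 library left out.

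All 3 ELF3 copies had their lowest group mean under CO2+temperature+drought, on either scale. ELF3-A1 had 6.19, 6.1 and 6.25 FPKM, against 8.38, 7.53 and 7.54 FPKM in control leaves. ELF3-B1 had 7.55, 7.79 and 7.1 FPKM, against 10.4, 8.71 and 8.44 FPKM in control leaves. ELF3-D1 had 6.13, 6.21 and 6.19 FPKM, against 9, 8.99 and 8.53 FPKM in control leaves. No copy overlapped control, and the replicates of the A and D copies lay close together. The share of all tested genes without overlap with control is not given for this group either. The separation thus does not set these copies apart from other genes. ELF3-D1 fell by 0.46 on the log2 scale (SE 0.08, limma adjusted p = 0.00036). ELF3-B1 was called at -0.26 (adjusted p = 0.043), a call lost in 9 of the 24 fits with 1 library left out, and ELF3-A1 was not called at -0.29 (adjusted p = 0.051). The 3 replicates of this group were thus alike in ELF3 while they differed in GI and PPD-D1.

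Against control, CO2+temperature lowered 4 of the 8 genes (ELF3-D1 and the GI copies) and raised 0, beside 28.6% of all tested genes, 13.7% lower (27.9% and 13.5% rescaled). CO2+temperature+drought changed 4 of 8 as deposited and rescaled, raising PPD-D1 and lowering PPD-A1, ELF3-B1 and ELF3-D1, beside 30% of all tested genes (29.4% rescaled). Temperature+drought changed 2 of 8 on each scale, beside 53.0% of all tested genes as deposited and 45.4% rescaled, 24.7% higher. PPD-D1 rose on both scales. ELF3-D1 was lower as deposited (-0.28, limma adjusted p = 0.0088, lost without temperature+drought replicate 1) and not called rescaled (-0.05), while ELF3-A1 was called only rescaled (0.33 against 0.10 as deposited). The 7 contrasts with control share the same 3 control libraries. On each scale 2 of 8 genes had a called interaction of all 3 treatments (38.1% of all tested genes as deposited, and 21.4% rescaled, 12% negative): PPD-A1 on both, GI-D1 as deposited (0.91, adjusted p = 0.049) and ELF3-A1 rescaled (-0.64, adjusted p = 0.05 after rounding).

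**Figure D4:**
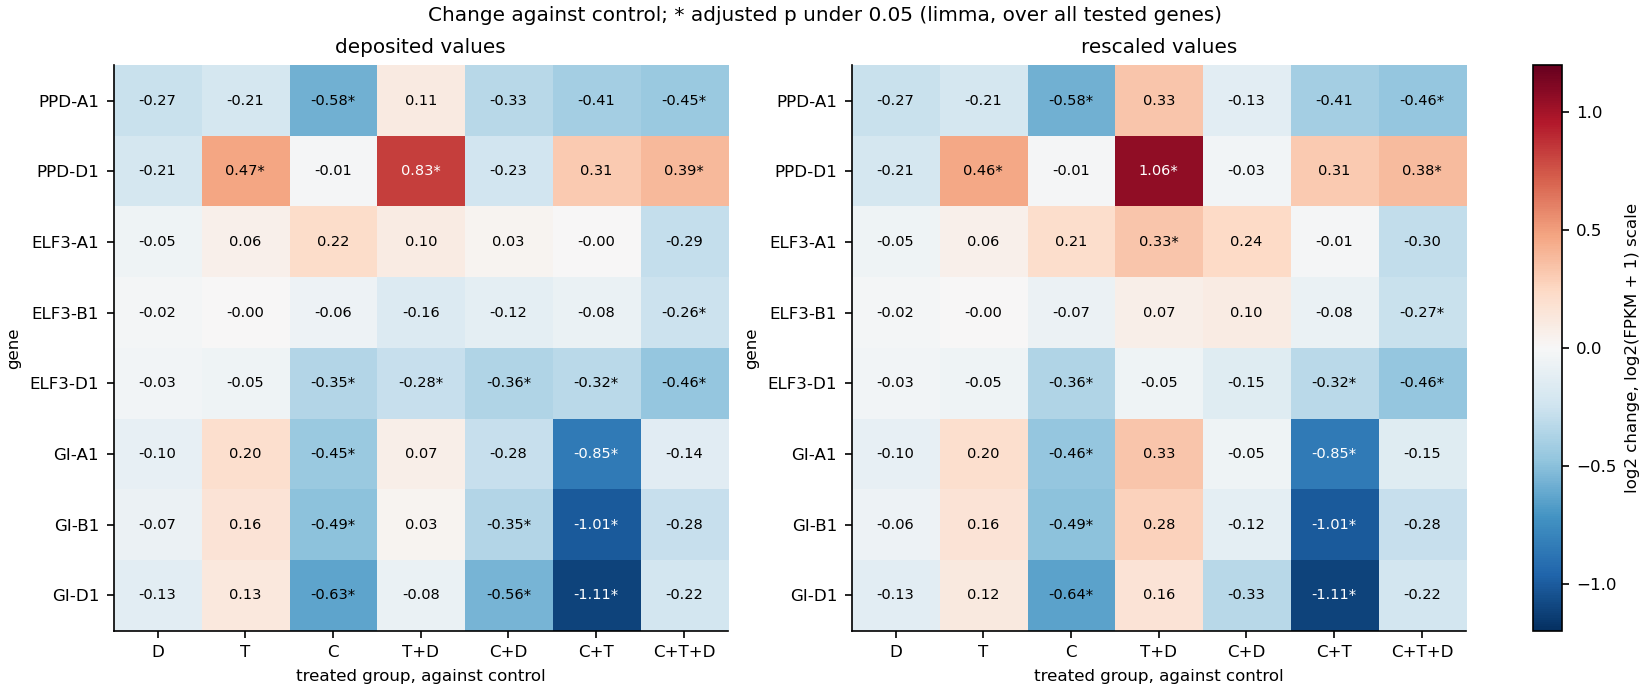
Log2 change of each gene (rows) in each treated group (columns) against control, on the log2(FPKM + 1) scale, for deposited (left) and rescaled (right) values. Asterisks mark an adjusted p under 0.05 (limma). The GI copies are lowest under CO2+temperature, and PPD-D1 is positive in the 4 heated groups.

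The make-up of each family by copy was then compared, since the share of a copy in its family's sum does not depend on the scale of a library. For PPD1 the sum held only the listed copies, PPD-A1 and PPD-D1, and no copy on chromosome 2B. Of 21 tests (7 shares by 3 treatments, exact permutation within the 4 backgrounds, two-sided), 3 passed an adjusted p of 0.05. The share of PPD-D1 in the PPD1 pair was 58% ± 4.47 in heated leaves and 47% ± 5.72 in unheated leaves (SD, n = 12 each), a difference of 11 points (exact permutation p = 8.7e-05, adjusted p = 0.00092), higher in 4 of 4 backgrounds. In control leaves PPD-D1 made up 43.3% of the pair, below PPD-A1, and in the 4 heated groups its mean share was 56.6% to 60%, above PPD-A1. CO2 leaves without heat stood at 54.9% ± 4.93 (SD, n = 3), the only unheated group above 50%.

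ELF3-D1 made up 29.2% ± 1.94 of the ELF3 sum with CO2 and 32.9% ± 2.2 without (SD, n = 12 each), a difference of -3.66 points (exact permutation p = 0.0011, adjusted p = 0.0074). It was lower in 3 of 4 backgrounds, with 31.1% under CO2+temperature+drought against 30.1% under temperature+drought. GI-A1 made up 42.5% ± 1.11 of the GI sum with CO2 and 40.6% ± 0.915 without (SD, n = 12 each), a difference of 1.92 points (exact permutation p = 5e-05, adjusted p = 0.00092), higher in 4 of 4 backgrounds. The GI copies thus kept nearly the same make-up, the largest group mean of GI-A1 being 43.7% (CO2+temperature) and the smallest 39.9% (drought).

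**Figure D5:**
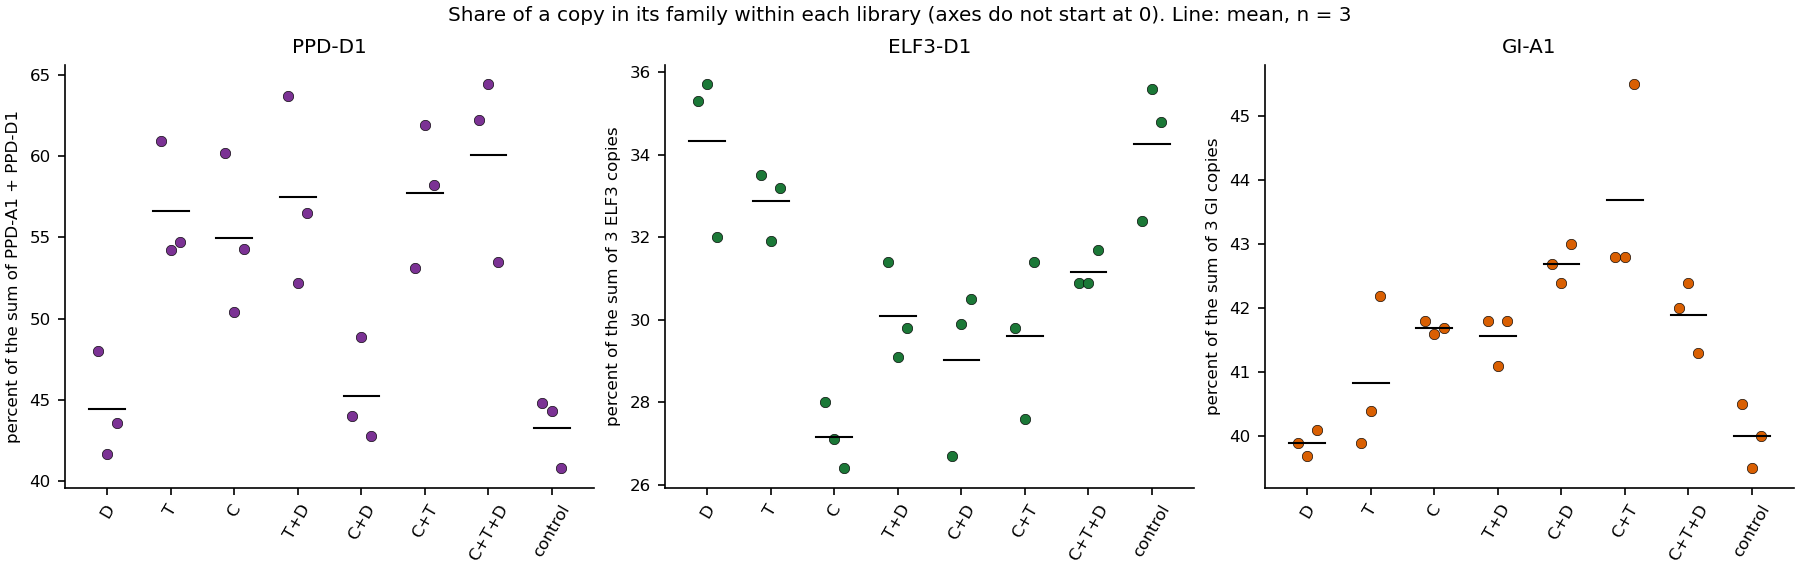
Share of PPD-D1, ELF3-D1 and GI-A1 in the summed FPKM of their family, in percent, in each library by treatment group, with control at the right (D for drought, T for temperature, C for CO2). Lines are means (n = 3), and the axes do not start at 0. PPD-D1 holds more than 50% of the listed pair (PPD-A1 and PPD-D1) in each heated library and in each library of CO2 alone.

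The copies of GI varied almost as 1 transcript. Over the 24 libraries, on rescaled values, the Pearson correlation was 0.98 between GI-A1 and GI-B1, 0.97 between GI-A1 and GI-D1 and 0.97 between GI-B1 and GI-D1. For each GI copy the 2 other GI copies were the 2 most alike of the other 45358 tested genes. The deviations of single libraries from their group means correlated at 0.95 to 0.97, so the copies also moved together among replicates. The ELF3 copies correlated at 0.42 to 0.77, and PPD-A1 and PPD-D1 at 0.49, and PPD-D1 took place 2780 among the genes most like PPD-A1. The sources used here do not say how fragments were divided between near-identical homoeologs, and the part of that step in these correlations was not tested. These correlations describe libraries that share treatments, and no test was made of them.

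The genes outside the 8 most like each family's sum over the 24 libraries were ranked by Pearson correlation on rescaled log2(FPKM + 1) values. For GI they were TraesCS2D02G336800 (r = 0.912) and TraesCS7A02G319900 (r = 0.895). All the genes named here were chosen for this likeness, so a highest or lowest group shared with the family follows from the choice. TraesCS2D02G336800 had its lowest mean, 9.44 ± 2.48 FPKM, in CO2+temperature leaves, as GI did. Its highest mean, 36.3 ± 8.23 FPKM, was in drought leaves, while GI was highest in temperature leaves as deposited. For PPD1 they were TraesCS7B02G127000 (r = 0.924) and TraesCS2D02G248700 (r = 0.923), both highest in temperature+drought leaves. For ELF3 they were TraesCS5D02G122900 (r = 0.897) and TraesCS1D02G121600 (r = 0.882), both lowest in CO2+temperature+drought leaves. The ranking depended on scale and measure. As deposited, these pairs of genes took places 1 and 8 for GI, 4 and 1 for PPD1, and 13 and 32 for ELF3. By Spearman rank correlation on rescaled values they took places 43 and 99, 1 and 6, and 10 and 22. Of 23 symbols of other clock and day-length genes looked up, 0 could be tied to an identifier of the table, so their levels were not analysed here.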

How the data were processed

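The deposited table held FPKM values made by the authors for 24 libraries. Per the submitters' processing notes, the tools were HISAT2, DESeq2, Cuffdiff and Trim Galore 0.4.1, with no role or order. The sources used here do not give the genome build, the annotation or a scaling between libraries. Steps between low values (under 0.3 FPKM) put the value of 1 fragment at 0.885 to 1.153 relative to control replicate 1, which mixes depth with any scaling. Absolute depth stayed unknown, so no counting interval was computed.

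The 45359 genes that reached 1 FPKM in 3 or more libraries were transformed as log2(FPKM + 1) and fitted with limma 3.58.1 in R 4.3.3, with 8 group coefficients and a mean-variance trend. Log2 changes on this scale understate those of low genes. P-values were two-sided and adjusted by Benjamini and Hochberg over all tested genes within each of 14 contrasts. The fit was tested on simulated data. Rescaling divided each library by its median-ratio factor over genes above 0 in every library. Shares were tested by 160000 exact permutations within backgrounds, whose smallest p is 1.3e-05, and adjusted over 21 tests. Python 3.11.15 was used. Alternatives were a pseudocount of 0.1, no filter, rescaled libraries, library quality weights, fewer libraries, leaving out each library, and a replicate block.

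The members, contrasts and lists were chosen with earlier results of these data known. All 8 genes were tested in each contrast, and the text names mainly those called. The 2 most alike genes for each family are named too. Of the 105200 identifiers, 0 were found in the RefSeq genes given for assembly IWGSC CS RefSeq v2.1. The limma p-values set a difference against the spread between biological replicates over the 8 groups, and the share p-values come from permuted library labels. The sources used here do not describe separate growth of those replicates.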

Additional observations from a re-analysis of the deposited data

Results flagged for a closer look

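Interactions that passed the threshold show that the effect of a treatment differed with the background, and 8 did so as deposited (limma, Benjamini-Hochberg adjusted p under 0.05). Of all tested genes, 20.2% were called for drought by temperature, 13.9% for drought by CO2, 53.0% for temperature by CO2 and 38.1% for all 3. Beside these shares, 1, 3, 2 and 2 of the 8 genes were called. The calls for temperature by CO2 and for all 3 thus do not set these genes apart from other genes. The drought by CO2 interaction was 0.55 for GI-A1, 0.54 for GI-B1 and 0.66 for GI-D1 on the log2 scale. These 3 held after rescaling and in each fit with 1 library left out. The drought by temperature interaction of PPD-D1 was 0.43. The temperature by CO2 interaction was -0.37 for ELF3-A1 and -0.35 for GI-B1. The interaction of all 3 treatments was -0.88 for PPD-A1 and 0.91 for GI-D1, and the GI-D1 call was lost after rescaling (0.42) and in 21 of 24 fits with 1 library left out. The last 4 values rest on contrasts in which the 6 libraries with low factors stand on 1 side, and their part in those values was not tested beyond rescaling.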

How the results depend on the processing

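Of the 33 calls for a gene in a contrast as deposited (of 112 pairs), 22 held in each of the 24 fits with 1 library left out and 11 were lost in at least 1. None of the 33 changed sign there. Among the 22, ELF3-D1 and GI-D1 in CO2+drought were not called after rescaling (limma adjusted p = 0.167 and 0.134). As deposited, 1.91% (drought against control) to 53.0% (temperature by CO2) of all tested genes were called in a contrast. The count of 33 thus does not set the 8 genes apart from other genes. With 1 library left out, the genes called against control numbered 0 in drought, 0 to 1 in temperature, 4 to 6 in CO2, 2 in temperature+drought, 2 to 4 in CO2+drought, 4 to 5 in CO2+temperature and 1 to 5 in CO2+temperature+drought. For the average effects they numbered 0 to 3 (drought), 1 to 2 (temperature) and 5 to 6 (CO2), and for the interactions 0 to 4 (drought by temperature), 3 to 4 (drought by CO2), 1 to 4 (temperature by CO2) and 0 to 4 (all 3), while 3 to 5 of the 21 shares passed. ELF3-A1 under temperature+drought, called only after rescaling, was at 0.10 as deposited and at -0.03 (without temperature+drought replicate 2) to 0.27 with 1 library left out. Library quality weights called more of all tested genes (in brackets) in each contrast, and more of the 8 genes except in drought alone (0, 12.8%). Against control they called 4 in temperature (41.9%) and 6 each in CO2 (52.8%), temperature+drought (75%), CO2+drought (73.9%), CO2+temperature (46.2%) and CO2+temperature+drought (62.4%). For the average effects they called 5 for drought (73.5%), 4 for temperature (70.2%) and 8 for CO2 (67.7%). For the interactions they called 5 for drought by temperature (56.8%), 4 for drought by CO2 (48.1%), 6 for temperature by CO2 (75.9%) and 5 for all 3 (67.9%). A fit to only the 6 libraries compared called 1 in temperature+drought. With no filter, temperature by CO2 had 1 call and the interaction of all 3 had 0. Rescaling gave 0 calls in CO2+drought, 3 for the average effect of drought and 4 for temperature by CO2. The share of all tested genes called is not given here for the fits with 1 library left out or no filter. Nor is it given for the replicate block or the fit to only the libraries compared. Changes in these counts thus cannot be told from a general change in calls. The causes were not tested. The replicate block called 3 of 8 in CO2+temperature+drought, where ELF3-B1 was lost (adjusted p = 0.054), and changed no other call. Libraries with the same number in different groups deviated together little (mean r 0.0163 over 84 pairs, -0.00787 over 168 pairs with different numbers). For 11 of the 24 libraries, the most alike library of another group had the same number. Whether the number gives a pairing was not tested. A pseudocount of 0.1 added ELF3-A1 in CO2+temperature+drought (-0.33, limma adjusted p = 0.049) and changed no other of the 112 pairs. Depth was unknown, which limits what the lowest levels can show.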
